A study of Homo sapiens with 12 samples.

Results

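The gene set described here holds 41 genes of the response to low oxygen and of glycolysis, chosen by gene symbol: oxygen sensors, glucose transporters, the enzymes of glycolysis, enzymes that decide the fate of pyruvate, and known targets of hypoxia. Of these, 39 had a named probe set and 38 were tested, among 14725 genes tested of 19775 with a named probe set. SLC16A3 and CA9 were not analysed here, and SLC2A3, a glucose transporter, lay above the filter level (the 40th percentile of an array, 4.86 to 4.95) in 1 shBCL9 array and 1 shGFP array only and was not tested. Each gene is represented by its brightest probe set over all arrays, and levels are the authors' log2 intensities, so levels of different genes cannot be set against each other. The members and other gene lists were chosen with earlier results of these data known, so their shares beside a background are descriptive only.

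The study used H929, an established line of human myeloma cells (myeloma is a tumour of plasma cells, which secrete antibodies), and measured 12 arrays in 4 groups of 3. In the infected arm, cells carried a hairpin RNA against BCL9 (shBCL9) or, as control, against green fluorescent protein (shGFP), and cells positive for GFP were sorted. In the transfected arm, cells received human miR-30, named in the labels as members a to e (given jointly or singly is not said), or, as control, the worm microRNA cel-miR-67. Only 1 cell line was used, the hairpin groups are sorted and the transfected groups are not said to be, and nothing in the labels says that arrays of a group are separate cultures, so p-values measure only the spread between these arrays.

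Array medians lay between 5.46 and 5.53. All 11 plasma cell and H929 markers were above the filter level in at least 3 arrays. So were 3 of 4 B cell markers (not MS4A1), 2 of 5 T and NK cell markers (not CD3G, CD2 and NKG7), 2 of 5 myeloid markers (not CD14, LYZ and S100A9), 2 of 2 erythroid markers and 3 of 5 stromal markers (not COL1A2 and COL3A1). Several of these lay near the filter level, such as PAX5 (5.21), CD3D (5.22), ALAS2 (5.33) and CSF1R (5.35), as means in cel-miR-67. There CD22 (6.23), HBB (7.02) and COL1A1 (7.31) lay higher. A level above the filter is thus not taken as expression of the marker. BCL9, the gene the hairpin is directed against, read 7.73, 7.61 and 7.85 in the shBCL9 arrays and 7.88, 7.90 and 7.88 in the shGFP arrays. The shBCL9 arrays all lay lower, but the log2 difference of -0.15 was not called (adjusted p = 0.0874, limma). In the arrays labelled miR-30 BCL9 read 7.99, 8.05 and 7.83, against 7.82, 7.86 and 7.79 with cel-miR-67. These overlapped, and the difference of 0.14 was not called (adjusted p = 0.269, limma).

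Cells read oxygen through prolyl hydroxylases (EGLN1, EGLN3), which mark the alpha subunits of the hypoxia-inducible factors, HIF1A and EPAS1, for destruction by the VHL ubiquitin ligase when oxygen is present. In low oxygen the alpha subunits persist, pair with ARNT and bind DNA at the core letters ACGTG or GCGTG, next to genes for glucose uptake, glycolysis, mitophagy and blood vessel growth. This control acts mainly on the protein, so transcript levels of HIF1A do not report its activity. Myeloma cells grow in bone marrow, where oxygen is low, and many cancer cells run glycolysis at a high rate in air as well.

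Promoter sequences of RefSeq on GRCh38.p14 were available for 34 of the 38 genes tested, in 61 windows that run from 250 bases before a gene's start to 50 after it. BNIP3L, VEGFA, NDRG1 and HILPDA had no window. The letters ACGTG, read on both strands and so also as CACGT, were in 24 of the 61 windows (39.3%), against 24.4% of 16746 windows of all genes tested. Among members higher in shGFP than in cel-miR-67 they were in 23 of 46 windows (50%). That subset was picked by a result of these data, and the share among all genes higher in shGFP was not computed. The other core, GCGTG, was in 44.3% of the members' windows, 47.8% of those of that subset and 46.3% of those of all genes tested. The members' windows had a median GC content of 69.7%, against 64.0%, and the part of GC content in these shares was not tested. Counted by gene, 19 of 34 members had ACGTG in some window (55.9%, against 30.8% of all genes tested). The 4 windows below belong to members picked by hand, and each of these has a match. ACGTG or CACGT is in capitals where it lies before the start (CACGTG is both at once, overlapping).
AK4 promoter, chr1:65147302-65147601, plus strand: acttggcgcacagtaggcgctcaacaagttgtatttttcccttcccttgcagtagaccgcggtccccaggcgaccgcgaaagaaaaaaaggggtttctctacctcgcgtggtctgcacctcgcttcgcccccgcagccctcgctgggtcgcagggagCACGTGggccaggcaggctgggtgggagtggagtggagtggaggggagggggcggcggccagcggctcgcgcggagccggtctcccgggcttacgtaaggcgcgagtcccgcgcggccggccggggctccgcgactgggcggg
ENO2 promoter, chr12:6914330-6914629, plus strand: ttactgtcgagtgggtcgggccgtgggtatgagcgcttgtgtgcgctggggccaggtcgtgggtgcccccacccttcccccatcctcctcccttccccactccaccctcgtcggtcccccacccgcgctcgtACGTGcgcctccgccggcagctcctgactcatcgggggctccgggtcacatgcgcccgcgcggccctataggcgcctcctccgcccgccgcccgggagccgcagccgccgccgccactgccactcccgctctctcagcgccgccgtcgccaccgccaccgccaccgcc
BNIP3 promoter, chr10:131981874-131982173, minus strand: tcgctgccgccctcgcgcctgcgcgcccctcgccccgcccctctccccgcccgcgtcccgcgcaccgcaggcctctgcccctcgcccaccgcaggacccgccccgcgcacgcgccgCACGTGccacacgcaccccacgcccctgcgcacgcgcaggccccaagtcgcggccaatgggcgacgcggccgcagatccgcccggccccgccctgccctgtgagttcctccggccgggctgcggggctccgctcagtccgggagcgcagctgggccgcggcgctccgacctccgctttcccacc
ALDOC promoter, chr17:28576846-28577145, minus strand: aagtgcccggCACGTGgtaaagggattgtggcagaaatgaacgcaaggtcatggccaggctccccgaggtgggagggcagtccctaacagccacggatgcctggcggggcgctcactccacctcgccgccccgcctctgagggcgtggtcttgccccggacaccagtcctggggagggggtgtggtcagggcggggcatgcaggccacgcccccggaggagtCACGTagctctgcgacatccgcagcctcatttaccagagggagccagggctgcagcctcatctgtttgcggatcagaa
The AK4 window, 1 of 4 of that gene, was taken for the most matches before the start, or the first by position if tied. Its capitals start 93 bases before the start of the gene. In ENO2 they start 118 bases before it, in BNIP3 134 bases before it, and in ALDOC 240 and 28 bases before it. A match only says that these letters are there.

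The agent of the transfected arm is shown by the mature sequences of its members a, c and e in RefSeq, with the seed, bases 2 to 8, in capitals. All 3 share the seed GUAAACA and differ after it.
hsa-miR-30a-5p, chr6:71403595-71403616, minus strand: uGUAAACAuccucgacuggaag
hsa-miR-30c-5p, chr1:40757300-40757322, plus strand: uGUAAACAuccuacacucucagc
hsa-miR-30e-5p, chr1:40754371-40754392, plus strand: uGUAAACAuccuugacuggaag

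The first comparison asks what the BCL9 hairpin did to these genes. AK4, a mitochondrial matrix kinase of adenylates, and ENO2, the neuronal enolase, fell most in shBCL9. AK4 fell by 2.05 on the log2 scale, ENO2 fell by 1.66 and EPAS1 fell by 0.95. HIF1A rose by 0.61, and ADM, a vasodilator peptide, was at least 1.29-fold higher. Of the 38 members 20 were called at an adjusted p under 0.05, which is 52.6%, against a background of 41.5% of all genes tested. The calls were 7 higher (18.4%, background 18.7%) and 13 lower (34.2%, background 22.9%). In 9 members all shBCL9 arrays lay above all shGFP arrays (background 24.8%), in 14 all lay below (background 27.2%), and so 23 of 38 did not overlap, beside 52% of all genes. The members' median difference was 0.02 on the log2 scale, beside 0.03 over all genes, and their median absolute difference was 0.17 beside 0.16. The share higher is thus near the background, and the median member moved about as much as the median gene. Arrays of whole cell populations cannot tell fewer cells of a kind from less RNA per cell. The 3' to 5' difference of ACTB, a sign of RNA length, averaged 1.67 ± 0.08 over the shBCL9 arrays and 1.30 ± 0.11 over the shGFP arrays (SD, n = 3 each). A two-sided exact permutation test of it gave p = 0.1, the lowest value possible with 3 arrays in each group. With that difference as a covariate, the calls of HIF1A, GPI and PKM (higher) and of EPAS1, HK1, ENO2, PDK3, VEGFA, P4HA1, KDM3A and AK4 (lower) remained, and HILPDA was called lower (-0.39, adjusted p = 0.0288, limma). The other 9 calls were lost. The ACTB difference did not overlap between shBCL9 arrays (1.59 to 1.75) and shGFP arrays (1.17 to 1.36). Calls kept or lost with it therefore cannot tell RNA quality apart from the hairpin. With the covariate the differences of GAPDH (0.29), LDHB (0.09), BNIP3 (0.08), ADM (higher), PFKFB3 (-0.45), PFKFB4 (-0.39), ALDOC (-0.23), BNIP3L (-0.31) and NDRG1 (-0.23) kept their sign. The 18S rRNA signal averaged 13.23 ± 0.02 over the shBCL9 arrays and 12.38 ± 0.07 over the shGFP arrays (SD, n = 3 each). The poly-A spike-ins averaged 6.01 ± 0.39 over the shBCL9 arrays and 6.59 ± 0.13 over the shGFP arrays, and the hybridisation spike-ins 10.97 ± 0.06 over the shBCL9 arrays and 11.22 ± 0.10 over the shGFP arrays (SD, n = 3 each). Each of these gave p = 0.1 in a two-sided exact permutation test, and their part in the members' values was not tested.

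**Figure D1:**
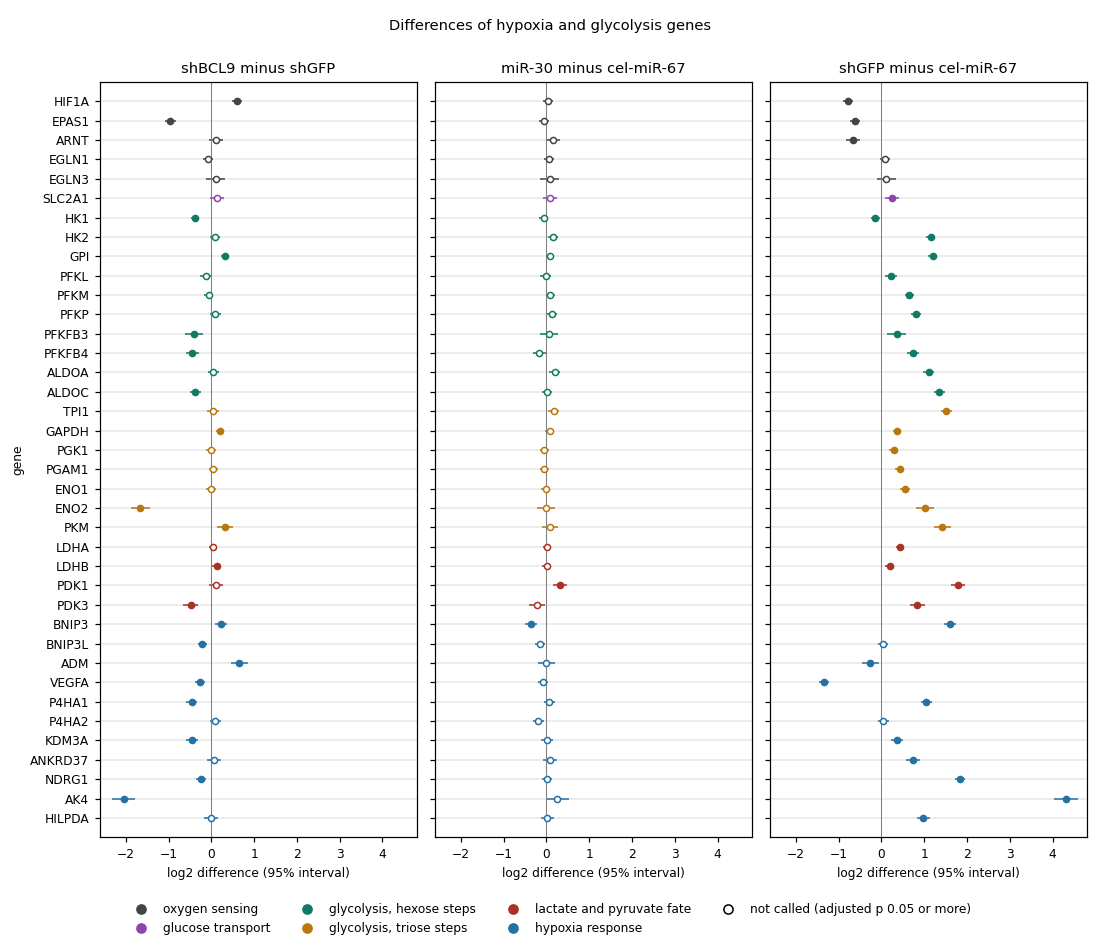
Log2 difference of each of the 38 tested members, ordered by role, from left to right for shBCL9 minus shGFP, for miR-30 minus cel-miR-67 and for shGFP minus cel-miR-67, with 95% intervals from limma and filled points for called genes. AK4 and ENO2 stand apart on the lower side under shBCL9 (-2.05 and -1.66), values for miR-30 stay between -0.35 and 0.32, and most points of the control comparison lie above 0.

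The oxygen-sensing genes did not move together. HIF1A, the main oxygen-regulated subunit, read 11.48, 11.43 and 11.46 in shBCL9 arrays and 10.79, 10.89 and 10.88 in shGFP arrays. All shBCL9 arrays lay above all shGFP arrays, and the difference of 0.61 (SE 0.05) was called (adjusted p = 1.9e-06, limma). EPAS1, the second oxygen-regulated subunit, read 5.78, 5.84 and 5.84 in shBCL9 arrays and 6.79, 6.77 and 6.77 in shGFP arrays. It fell by 0.95 (SE 0.05, adjusted p = 4.27e-08, limma), a 1.94-fold difference, with no overlap. The genes of these subunits thus moved in opposite directions. ARNT, their partner, differed by 0.11, EGLN1 by -0.08 and EGLN3 by 0.10, and none of these was called.

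Among genes of glucose uptake and the hexose steps of glycolysis, calls went in both directions. SLC2A1, the glucose transporter, differed by 0.13 and was not called. Of 10 genes of the hexose steps, 1 was higher (10%, background 18.7%) and 4 were lower (40%, background 22.9%). Called genes were thus 50% of these, beside 41.5% of all genes. HK1, a hexokinase, read 8.62, 8.66 and 8.61 in shBCL9 arrays and 8.97, 9.01 and 9.04 in shGFP arrays, and fell by 0.38 (adjusted p = 2.87e-05, limma). GPI, the isomerase of the next step, read 11.62, 11.65 and 11.70 in shBCL9 arrays and 11.35, 11.31 and 11.38 in shGFP arrays, and rose by 0.31 (adjusted p = 1.39e-04, limma). In both genes the arrays of the groups stayed apart. PFKFB3 and PFKFB4 make the sugar bisphosphate that activates phosphofructokinase. PFKFB3 read 6.94, 7.10 and 7.20 in shBCL9 arrays against 7.32, 7.68 and 7.47 in shGFP arrays, and fell by 0.41 (adjusted p = 0.00585, limma). PFKFB4 fell by 0.44 (adjusted p = 2.52e-04), but its other usable probe set gave 0.21, and the mean of the probe sets was not called. ALDOC, the aldolase form of brain, read 8.92, 8.74 and 8.85 in shBCL9 arrays and 9.23, 9.13 and 9.26 in shGFP arrays, and fell by 0.37 (adjusted p = 2.38e-04, limma). HK2 (0.09), PFKL (-0.12), PFKM (-0.06), PFKP (0.09) and ALDOA (0.04), other hexokinase, phosphofructokinase and aldolase genes, were not called.

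Among the 7 triose-step genes 2 were higher (28.6%, background 18.7%) and ENO2 alone was lower (14.3%, background 22.9%). ENO2 read 6.42, 6.52 and 6.16 in shBCL9 arrays and 7.90, 8.10 and 8.06 in shGFP arrays, a 3.16-fold difference (SE 0.10 on the log2 scale, adjusted p = 6.03e-08, limma). The gap between the groups was far wider than the spread within either. ENO1, the enolase of most cells, read 13.23, 13.22 and 13.24 in shBCL9 arrays and 13.25, 13.22 and 13.24 in shGFP arrays. These overlapped, with a difference of -0.01 (95% interval -0.11 to 0.10). GAPDH, the dehydrogenase of the triose phosphate, rose by 0.20 (adjusted p = 0.00371), and PKM, the pyruvate kinase of most tissues, by 0.32 (adjusted p = 0.0115, limma). PKM read 8.6, 8.53 and 8.87 in shBCL9 arrays, all above the 8.35, 8.30 and 8.40 of shGFP arrays. TPI1 (0.04), PGK1 (-0.01) and PGAM1 (0.05), an isomerase, a kinase and a mutase, were not called.

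Of 4 genes that act on pyruvate and lactate, 1 was higher (25%, background 18.7%) and 1 lower (25%, background 22.9%). PDK3, a kinase that turns off pyruvate dehydrogenase, read 8.87, 8.94 and 8.78 in shBCL9 arrays and 9.34, 9.41 and 9.28 in shGFP arrays. It fell by 0.48 (adjusted p = 5.16e-04, limma) without overlap. LDHB, a lactate dehydrogenase subunit, was called higher by 0.13 (adjusted p = 0.046), but lost the call without shGFP replicate 1, 2 or 3 and without shBCL9 replicate 1 or 2 (adjusted p up to 0.138, limma). LDHA (0.04), the other subunit, and PDK1 (0.11), the best known hypoxia-induced kinase of the family, were not called.

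Of 11 hypoxia response genes tested, 2 were higher (18.2%, background 18.7%) and 6 lower (54.5%, background 22.9%). AK4 read 6.96, 7.28 and 6.96 in shBCL9 arrays and 9.08, 9.13 and 9.15 in shGFP arrays, a 4.15-fold difference (SE 0.13 on the log2 scale, adjusted p = 8.55e-08, limma). Its 4 probe sets gave -2.05, -1.63, -0.99 and -0.60, so the direction was shared and the size was not. With ENO2 it was 1 of 2 members lower by at least 2-fold, which 1.44% of all genes were. P4HA1, which hydroxylates collagen, read 11.13, 11.12 and 11.08 in shBCL9 arrays and 11.55, 11.62 and 11.55 in shGFP arrays. It fell by 0.46 (adjusted p = 4.48e-05, limma). KDM3A, a histone demethylase, read 9.55, 9.64 and 9.36 in shBCL9 arrays against 9.94, 9.99 and 9.99 in shGFP arrays, and fell by 0.46 as well (adjusted p = 1.02e-04, limma). In both genes each shBCL9 array lay below each shGFP array. VEGFA, the growth factor of blood vessels, fell by 0.27, NDRG1, a stress-induced gene, by 0.24 and BNIP3L, a mitophagy receptor, by 0.21. BNIP3, the related receptor, read 11.48, 11.56 and 11.55 in shBCL9 arrays and 11.21, 11.27 and 11.44 in shGFP arrays. It rose by 0.22 (adjusted p = 0.0166), a call lost without shGFP replicate 1 or 2 (adjusted p up to 0.0645, limma). ADM read 5.26, 5.41 and 5.15 in shBCL9 arrays, while all 3 shGFP arrays (4.49, 4.57 and 4.8) were below the filter level. ADM was therefore at least 1.29-fold higher in shBCL9, taking the filter level as the lower bound (adjusted p = 8.63e-05, limma). P4HA2 (0.09), ANKRD37 (0.07) and HILPDA (-0.01) were not called.

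**Figure D2:**
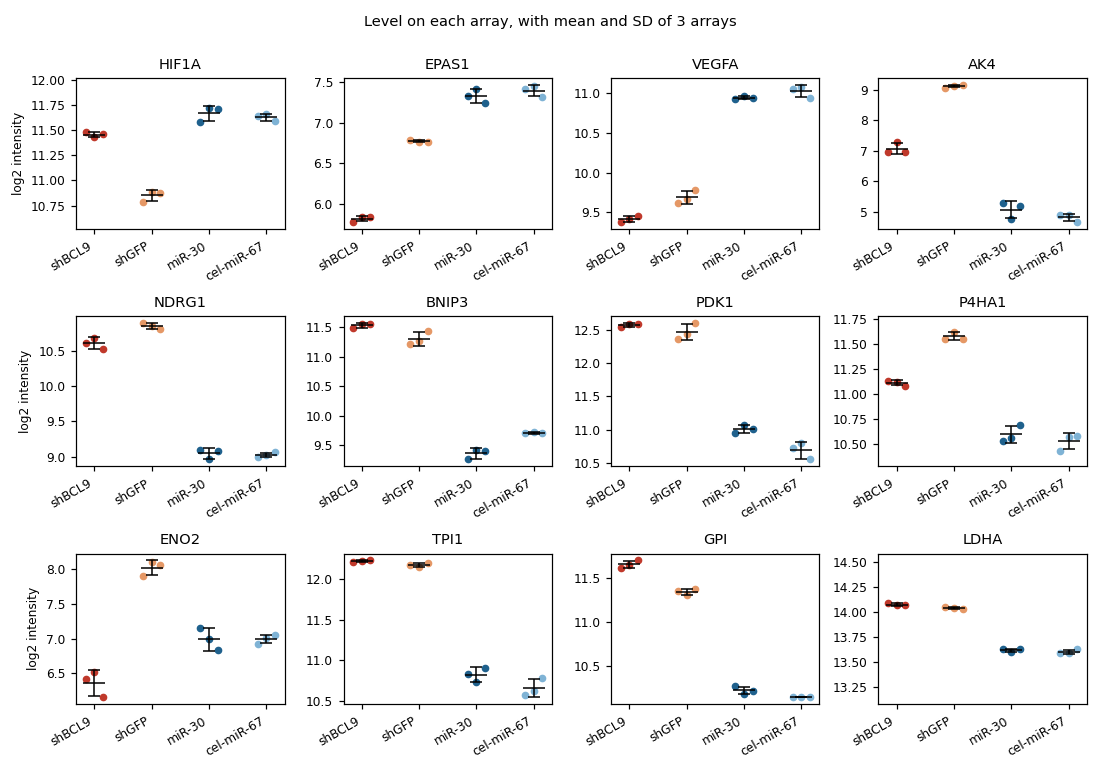
Log2 intensity on each array for members the text turns on, with shBCL9 left of shGFP and miR-30 left of cel-miR-67, 1 point per array and bars for the mean and SD of 3 arrays. AK4 falls in shBCL9 yet stays above both transfected groups, ENO2 in shBCL9 lies below all other groups, and HIF1A is lowest in shGFP.

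The second comparison asks what miR-30 did. Little changed: 2 of 38 members were called, PDK1 higher and BNIP3 lower, which is 5.26%, against a background of 4.98% (2.34% higher and 2.63% lower). In 10 members the groups stayed apart on all arrays (background 26.1%), 6 above (background 10%) and 4 below (background 16.1%). The members' differences ran from -0.35 to 0.32, with a median of 0.02 beside -0.02 over all genes, and at an unadjusted p under 0.05 there were 4 higher and 5 lower. Over all genes the calls were 345 higher and 388 lower, but 452 and 323 after a further quantile normalization. The ACTB difference was 2.07 ± 0.01 in the arrays labelled miR-30 and 2.16 ± 0.09 with cel-miR-67 (SD, n = 3 each, p = 0.4 in a two-sided exact permutation test). The 18S rRNA signal averaged 12.64 ± 0.04 over the arrays labelled miR-30 and 12.5 ± 0.05 over those with cel-miR-67 (SD, n = 3 each, exact permutation p = 0.1), and its part in the members' values was not tested.

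BNIP3 read 9.26, 9.42 and 9.41 in the arrays labelled miR-30 and 9.70, 9.73 and 9.71 with cel-miR-67. It fell by 0.35 (SE 0.07, adjusted p = 0.00995, limma), each miR-30 array lay below each control array, and the call held in all alternatives run. Its other probe set gave -0.18. PDK1 read 10.95, 11.07 and 11.01 in the arrays labelled miR-30 and 10.72, 10.80 and 10.55 with cel-miR-67. It rose by 0.32 (SE 0.07, adjusted p = 0.0277, limma) without overlap, and its other 2 probe sets gave 0.30 and 0.10. That call was lost without cel-miR-67 replicate 1 or 3 and without miR-30 replicate 2 or 3 (adjusted p up to 0.11, limma).

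With miR-30, 4.98% of all genes tested were called, so small groups of genes would hold few calls or none at that share. By role, 0 of 5 oxygen sensing genes, 0 of 10 of the hexose steps and 0 of 7 of the triose steps were called in limma. At an unadjusted p under 0.05, there were 0, 3 and 1 of these. AK4 read 5.28, 4.74 and 5.17 in the arrays labelled miR-30 and 4.88, 4.88 and 4.66 with cel-miR-67, overlapping and near the filter level. ENO2 differed by -0.01 (95% interval -0.22 to 0.21), and HIF1A by 0.04 (95% interval -0.07 to 0.16). The arrays of the groups overlapped in both genes. ALDOA (0.20), P4HA2 (-0.19), BNIP3L (-0.15) and HK2 (0.15) came nearest to the threshold among those not called, with adjusted p between 0.0801 and 0.116 (limma).

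The effects of the treatments were set against each other in the same fit, as the miR-30 effect minus the shBCL9 effect. Of 38 members 14 were called, which is 36.8%, against a background of 26.3%, with 9 higher (background 14.6%) and 5 lower (background 11.7%). AK4 (difference of effects 2.31, SE 0.18, adjusted p = 1.76e-06), ENO2 (1.65, adjusted p = 3.5e-06), EPAS1 (0.89, adjusted p = 4.33e-06) and KDM3A (0.48, adjusted p = 0.0019) kept the call in every alternative run (limma). In each of these the gene fell with shBCL9 and was not called with miR-30. BNIP3 had effects of opposite sign, -0.35 with miR-30 and 0.22 with shBCL9, and the difference of -0.57 was called (adjusted p = 6.41e-04, limma). With the ACTB difference as covariate it was -0.40 and not called (adjusted p = 0.178). HIF1A (-0.56), GPI (-0.24), P4HA2 (-0.28) and ADM were lower, ADM with no size given since its shGFP level was below the filter level, and P4HA1 (0.53), PFKFB3 (0.47), ALDOC (0.39), HK1 (0.31) and NDRG1 (0.26) higher. With that covariate 5 members were called higher and 0 lower (3 lower at an unadjusted p under 0.05, limma).

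The last comparison sets the control groups against each other, shGFP over cel-miR-67. These groups differ in delivery, in the agent and in sorting at once, and these cannot be told apart. Here most glycolysis and hypoxia response genes of the set were higher in shGFP, while HIF1A, EPAS1, ARNT and VEGFA were among those lower. By the brightest probe sets the rises ran from AK4, at no less than 18.8-fold, to LDHB at 1.15-fold. The other AK4 probe sets gave smaller log2 differences of 3.33, 1.17 and 1.27. Of 38 members 34 were called, which is 89.5%, against a background of 61.4%. There were 28 higher (73.7%, background 28.4%) and 6 lower (15.8%, background 33%). Arrays did not overlap in 35 members (background 66.1%), 29 above (background 31.3%) and 6 below (background 34.8%). Of the 28, 12 were higher by at least 2-fold (background 4.08%), and VEGFA was the only member lower by at least 2-fold (background 6.41%). The members' median difference was 0.49 on the log2 scale, beside 0.02 over all genes, and it was 0.48 and 0.47 under the other scalings run. The ACTB difference was 1.30 ± 0.11 in shGFP and 2.16 ± 0.09 in cel-miR-67, with no overlap between any infected and any transfected array. With that covariate the calls of HK2, GPI, ALDOC, TPI1, ENO2, PDK1, PDK3, BNIP3, P4HA1, KDM3A, NDRG1, AK4 and HILPDA (13 higher) and of VEGFA (lower) remained. GAPDH's own 3' to 5' difference was 0.14 ± 0.02 in shGFP and 0.18 ± 0.04 in cel-miR-67 (SD, n = 3 each). The summed linear intensity of the 11 plasma cell and H929 markers ran from 65948 to 70600 in shGFP arrays and from 52000 to 53292 in cel-miR-67 arrays. Of the 11, 7 were called higher (63.6%, background 28.4%) and 2 lower (18.2%, background 33%). The sum of 2 erythroid markers ran from 219 to 231 in shGFP and from 162 to 183 in cel-miR-67. For 5 stromal markers it ran from 320 to 347 in shGFP and from 288 to 313 in cel-miR-67, with COL1A2 and COL3A1 above the filter level in fewer than 3 arrays. For 5 T and NK cell markers it ran from 147 to 160 in shGFP and from 136 to 145 in cel-miR-67, with CD3G, CD2 and NKG7 above that level in fewer than 3 arrays. The B cell and myeloid sums overlapped. The part of these shifts in the members' values was not tested.

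**Figure D3:**
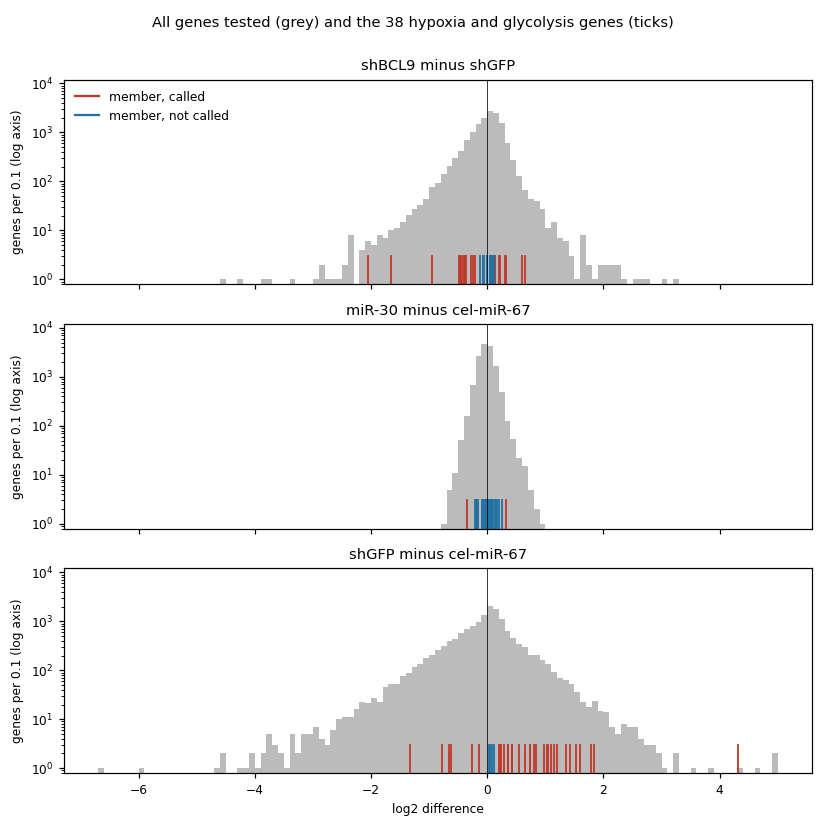
Distribution of log2 differences over the 14725 genes tested in the 3 comparisons, with the 38 members marked as ticks at the foot of each panel. Members are spread around 0 for shBCL9 minus shGFP and for miR-30 minus cel-miR-67 (medians 0.02 and 0.02) and lie to the right for shGFP minus cel-miR-67 (median 0.49).

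Among the members, HIF1A, EPAS1 and ARNT, genes of the hypoxia-inducible factors, were lower in shGFP. HIF3A, a gene of this family outside the members, was called higher there, averaging 6.35 in shGFP and 6.05 in cel-miR-67. HIF1A averaged 10.85 ± 0.06 in shGFP and 11.63 ± 0.04 in cel-miR-67 (SD, n = 3 each), lower by 0.78 on the log2 scale. EPAS1 averaged 6.78 ± 0.01 in shGFP and 7.40 ± 0.07 in cel-miR-67 (SD, n = 3 each), and ARNT averaged 8.64 ± 0.09 in shGFP and 9.30 ± 0.11 in cel-miR-67. Each was lower in shGFP with no overlap, and with the ACTB covariate none of these calls remained. EGLN1 (0.07) and EGLN3 (0.11), the hydroxylases, were not called.

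In glycolysis, all 7 triose-step genes and 9 of 10 hexose-step genes were higher in shGFP (100% and 90%, background 28.4%). TPI1 read 12.18, 12.15 and 12.20 in shGFP arrays and 10.57, 10.62 and 10.78 in cel-miR-67 arrays, a 2.87-fold difference (adjusted p = 2.67e-10, limma). PKM was 2.69-fold higher, ALDOC 2.56-fold, GPI 2.29-fold, HK2 2.21-fold, ALDOA 2.15-fold and ENO2 2.03-fold. By their brightest probe sets PFKP (0.81), PFKFB4 (0.74), PFKM (0.65), ENO1 (0.55) and PGAM1 (0.42) differed by under 1 on the log2 scale. So did GAPDH (0.36), PFKFB3 (0.35), PGK1 (0.28) and PFKL (0.22). Other probe sets gave other sizes, such as 0.94 for PGK1, 0.16 for PFKFB4 and 0.93 for PKM. The sizes of the steps are therefore not ranked. HK1 went the other way, by -0.14 (adjusted p = 0.0138), a call lost without shGFP replicate 1 (adjusted p = 0.0515, limma). SLC2A1 was higher by 0.24 (adjusted p = 0.0132), a call lost without shGFP replicate 3 or cel-miR-67 replicate 3 (adjusted p up to 0.0619, limma).

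The 4 genes of pyruvate and lactate were all higher in shGFP (background 28.4%). PDK1 read 12.37, 12.44 and 12.61 in shGFP arrays and 10.72, 10.80 and 10.55 in cel-miR-67 arrays, a 3.44-fold difference (adjusted p = 3.52e-10, limma). Its 3 probe sets gave 1.78, 1.60 and 1.47, so size and direction were shared. PDK3 was higher by 0.84, LDHA by 0.43 and LDHB by 0.20.

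Among hypoxia response genes 7 of 11 were higher (63.6%, background 28.4%) and 2 lower (18.2%, background 33%) in shGFP. AK4 read 9.08, 9.13 and 9.15 in shGFP arrays and 4.88, 4.88 and 4.66 in cel-miR-67 arrays, and was higher in shGFP (adjusted p = 2.31e-11, limma). Only 1 of the 3 cel-miR-67 arrays was above the filter level. With that level in place of the values below it, AK4 was at least 18.8-fold higher in shGFP by its brightest probe set. Its other 3 probe sets gave log2 differences of 3.33, 1.17 and 1.27. NDRG1 read 10.90, 10.85 and 10.82 in shGFP arrays and 9.0, 9.02 and 9.06 in cel-miR-67 arrays, a 3.56-fold difference (adjusted p = 3.15e-11, limma). BNIP3 was 3.02-fold higher, P4HA1 2.06-fold, HILPDA, which coats lipid droplets, 1.97-fold, ANKRD37 1.68-fold and KDM3A 1.29-fold. VEGFA read 9.62, 9.67 and 9.78 in shGFP arrays and 11.06, 11.08 and 10.94 in cel-miR-67 arrays, lower by 1.34 on the log2 scale (adjusted p = 3.19e-10, limma). All 4 of its probe sets were lower (-1.34, -0.50, -0.46 and -0.83), against the direction of most of its neighbours in the list. ADM was called lower, but no fold is given, since all shGFP arrays were below the filter level and cel-miR-67 lay near it. That call was lost without shGFP replicate 1 or 2 and without cel-miR-67 replicate 1 or 3 (adjusted p up to 0.097, limma), and with the ACTB covariate. BNIP3L (0.04) and P4HA2 (0.05) were not called.

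The arms as wholes showed the same split in levels. In 23 of 38 members all 6 infected arrays lay above all 6 transfected arrays, which 21% of all genes tested did. In 5 members (HIF1A, EPAS1, ARNT, HK1 and VEGFA) they all lay below, which 26% of all genes did. The shBCL9 and control comparisons share the shGFP arrays, so their values are given side by side only. Of the 28 members higher in shGFP than cel-miR-67, 9 were lower, 5 higher and 14 not called in shBCL9. Of all genes tested, 22.9% were lower and 18.7% higher in shBCL9. The shares among all genes higher in shGFP were not computed, so these counts show no trait of the members. AK4 averaged 7.06 ± 0.19 in shBCL9, 5.06 ± 0.29 in the arrays labelled miR-30, 9.12 ± 0.04 in shGFP and 4.8 ± 0.12 in cel-miR-67 (SD, n = 3 each). Its shBCL9 level was thus between shGFP and the transfected groups. ENO2 averaged 6.36 ± 0.18 in shBCL9, 6.99 ± 0.16 in the arrays labelled miR-30, 8.02 ± 0.10 in shGFP and 7.0 ± 0.06 in cel-miR-67 (SD, n = 3 each). Its shBCL9 level was thus below that of every other group. BNIP3, PDK1, TPI1 and GPI kept their higher level in the infected arm with either hairpin. Within groups the members varied little, with a median SD over 3 arrays of 0.05 in shBCL9, 0.08 in miR-30, 0.06 in shGFP and 0.05 in cel-miR-67. Low spread was general: the median SD of all genes tested was 0.073 in shBCL9, 0.078 in miR-30, 0.075 in shGFP and 0.07 in cel-miR-67.

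Of the 38 genes, 21 had several probe sets above the filter level. Among called genes of this kind, 8 of 9 had 1 sign over all such probe sets in shBCL9 minus shGFP, 2 of 2 in miR-30 minus cel-miR-67, and 18 of 18 in shGFP minus cel-miR-67. PFKFB4 was the exception. The brightest probe sets of PFKL, ALDOA and LDHB are of a kind that can bind related transcripts, so their values are less certain.

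**Figure D4:**
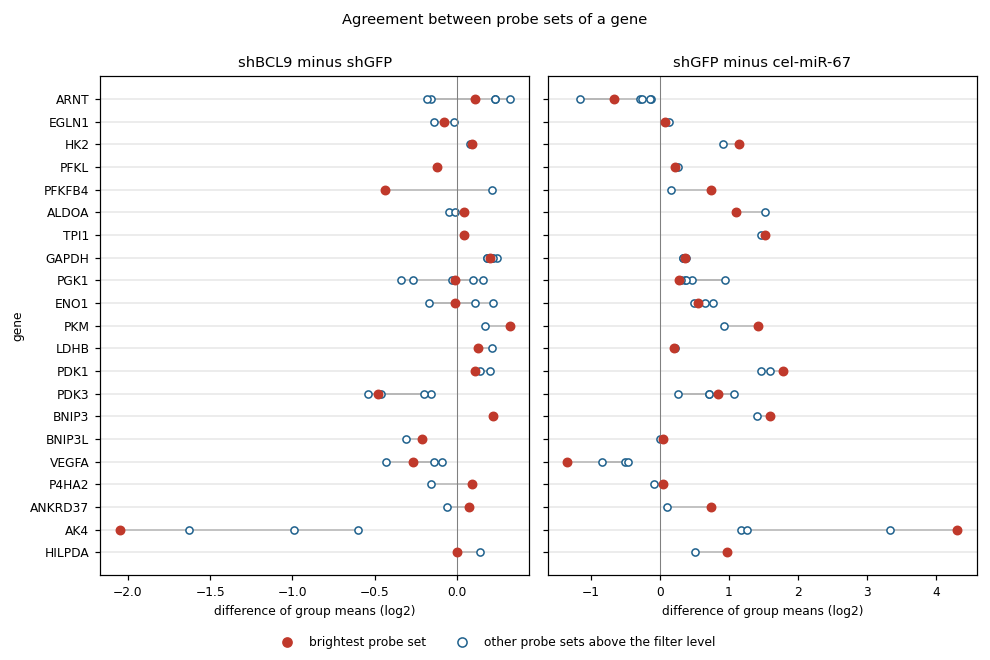
Difference of group means (log2) for each probe set above the filter level of the 21 members with several, in shBCL9 minus shGFP and in shGFP minus cel-miR-67, with the brightest probe set filled. All 4 AK4 probe sets lie below 0 on the left and above 0 on the right, all 4 VEGFA probe sets lie below 0 in both, and PFKFB4 splits on the left.

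The other parts of the oxygen-sensing system were read from a list of 12 genes, of which 11 were tested. In shBCL9 ELOC, a subunit of the VHL ligase, was higher by 0.20 (adjusted p = 0.0194, limma). HIF1AN, the asparagine hydroxylase that curbs HIF, fell by 0.39 (adjusted p = 0.00303), and CREBBP, a co-activator, fell by 0.21 (adjusted p = 0.0209, limma). These 3 of 11 are 27.3%, beside 41.5% of all genes. With miR-30 none of the 11 was called in limma (background 4.98%), with 0 higher and 3 lower at an unadjusted p under 0.05. In shGFP against cel-miR-67, 4 were higher (RBX1 0.58, CUL2 0.33, CITED2 0.30 and HIF3A 0.30) and 3 lower (VHL -0.90, EP300 -0.59 and CREBBP -0.48), which is 63.6%, beside 61.4% of all genes. VHL, which recognises hydroxylated HIF, read 8.29, 8.39 and 8.19 in shGFP arrays and 9.20, 9.19 and 9.19 in cel-miR-67 arrays. The groups lay well apart (adjusted p = 6.27e-08, limma). ARNT2, a form of ARNT, and ELOB, which pairs with ELOC, were not called in any of these comparisons, and EGLN2, a hydroxylase, was below the filter level.

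In a list of 30 other genes described as induced by low oxygen, 26 were tested. In shBCL9, 3 were higher and 11 lower (11.5% and 42.3%, beside 18.7% and 22.9% of all genes). BHLHE41, a repressor of the circadian clock, read 4.95, 5.10 and 4.52 in shBCL9 arrays and 7.46, 7.62 and 7.62 in shGFP arrays, with 2 of the 3 shBCL9 arrays above the filter level. With that level in place of the value below it, BHLHE41 was at least 5.92-fold lower in shBCL9 (adjusted p = 3.36e-09, limma). DDIT4, an inhibitor of mTOR signalling, read 11.26, 11.20 and 11.31 in shBCL9 arrays and 11.99, 12.13 and 12.08 in shGFP arrays, and fell by 0.81 (adjusted p = 1.21e-07, limma). Both separated fully by group. MXI1, an antagonist of MYC, fell by 0.52 and INSIG2, a regulator of sterol synthesis, by 0.34. With miR-30, JMJD6 (-0.33) and TMEM45A (-0.30) were lower and none was higher (0 in limma, 2 at an unadjusted p under 0.05). These 2 of 26 are 7.69%, beside 4.98% of all genes. In shGFP against cel-miR-67 8 were higher and 10 lower (30.8% and 38.5%, beside 28.4% and 33% of all genes). TFRC, the transferrin receptor, read 12.96, 13.02 and 13.04 in shGFP arrays and 10.88, 10.92 and 10.84 in cel-miR-67 arrays, a 4.37-fold difference (adjusted p = 3.33e-12, limma). STC2 (-1.57), a secreted glycoprotein, DDIT4 (-1.29) and RIOK3 (-0.77) were lower.

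A list of 21 other genes of glycolysis and lactate handling had 15 tested. In shBCL9 4 were higher and 1 lower, among them GALM (0.64), which interconverts the anomers of hexoses, HK3 (0.40), a hexokinase of blood cells, BSG (0.39), the chaperone of lactate transporters, and BPGM (-0.41), which makes bisphosphoglycerate. With miR-30 BPGM was lower by 0.24 (adjusted p = 0.021) and none was higher (0 in limma, 1 at an unadjusted p under 0.05). In shGFP against cel-miR-67 3 were higher and 3 lower, with TIGAR (-0.89), a phosphatase of fructose bisphosphate, BPGM (-0.80), GALM (0.51) and ENO3 (-0.50), the enolase of muscle, having the smallest adjusted p. Called genes were 33.3% of the list in shBCL9 and 40% in shGFP against cel-miR-67, beside 41.5% and 61.4% of all genes. With miR-30 they were 6.67%, beside 4.98% of all genes.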

How the data were processed

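Total RNA of H929 cells was labelled with biotin by an Affymetrix 3' in vitro transcription protocol, per the labels' protocols. The authors deposited log2 intensities of 54675 probe sets on 12 arrays, for which RMA and the package affy are named, per the submitters' processing notes. Versions are not given in the sources used here. Precision is limited by the number of arrays, and there is no read depth. Groups came from the sample titles.

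Probe sets with 1 gene symbol (41097) were named from the platform annotation, while 1801 had several symbols and 11777 were not listed with a gene. Of those named, 41043 were matched by gene ID to current names. Each gene is its brightest probe set over all arrays, kept when above the 40th percentile of its array (4.86 to 4.95) in at least 3 arrays. The linear model, run with limma 3.58.1 (lmFit, eBayes) in R 4.3.3, had 1 mean for each group over all 12 arrays, with Benjamini-Hochberg adjustment over all 14725 genes and a threshold of 0.05. RNA quality probe sets were compared with exact permutation tests. The fit was tested on simulated data. Plots used matplotlib 3.10.9 (Python 3.11.15).

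All members are named, with every gene of the HIF system list and up to 4 called genes per comparison, by adjusted p, of each other list. The members and lists were chosen with earlier results of these data known. Alternatives tried were leaving out the filter, a 60th percentile filter, averaging all probe sets of a gene, using plain probe sets alone, a further quantile normalization, centring on array medians, only the 6 arrays of a comparison, trend and robust variance, array weights, a replicate block, an ACTB 3' to 5' covariate, a threshold of 0.01, and leaving out each array.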

Additional observations from a re-analysis of the deposited data

How the results depend on the processing

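Most counts stayed within 1.5 times of those reported. Of called members, 10 of 20 for shBCL9, 1 of 2 for miR-30, 4 of 14 for the difference of effects and 14 of 34 for shGFP over cel-miR-67 kept the call under every alternative run. The ACTB covariate moved counts of each comparison: shBCL9 minus shGFP then gave 1075 genes higher and 1892 lower with 3 members higher, the difference of effects 1167 and 550 genes with 5 and 0 members (at an unadjusted p under 0.05, 3 lower, limma), and shGFP minus cel-miR-67 943 and 715 genes with 13 and 1 members. It also gave 219 genes lower for miR-30. Infected and transfected arrays do not overlap in it, and neither do shBCL9 and shGFP arrays. In the control comparison and in shBCL9 minus shGFP it therefore cannot be told apart from the contrast. At a threshold of 0.01, shBCL9 gave 1544 genes and 4 members higher, the difference of effects 1356 and 829 genes with 3 members lower, and miR-30 141 and 77 genes with 0 members higher (4 at an unadjusted p under 0.05, limma). With plain probe sets, which leave 23 members tested, members lower in shBCL9 were 8, the difference of effects gave 1135 genes lower and 5 members higher, and shGFP minus cel-miR-67 15 members higher. For miR-30, genes higher were 226 with plain probe sets and 539 with trend and robust variance. Genes lower were 229 with no filter, 668 with the stricter filter, 249 with plain probe sets, 213 with only its 6 arrays, 880 with trend and robust variance and 778 with array weights. Its members higher were 2 with the stricter filter, 2 after quantile normalization, 0 with only its 6 arrays (4 at an unadjusted p under 0.05, limma) and 4 with trend and robust variance, and its members lower 2, 3 and 2 with the stricter filter, trend and robust variance, and array weights. Leaving out an array gave 188 to 257 genes higher and 103 to 285 lower for miR-30, with 0 to 1 and 1 to 2 members, fewest without miR-30 replicate 2 (higher) and without cel-miR-67 replicate 2 (lower). Members for shBCL9 were then 5 to 7 higher and 13 lower, for the difference of effects 7 to 10 and 4 to 5, and for shGFP minus cel-miR-67 27 to 28 and 4 to 6. Reversed values were ADM (0.37) and HIF3A (-0.13) in shGFP minus cel-miR-67 with the ACTB covariate, and with plain probe sets TKT (-0.21 for miR-30, 0.10 for shGFP minus cel-miR-67) and SDHC (0.60 for the difference of effects). Only SDHC was called in its reversed direction. Where no construction is named, the cause was not tested.

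With the replicate block, members were 6 higher and 13 lower for shBCL9, 1 and 1 for miR-30, and 10 and 4 for the difference of effects, and no count moved by over 1.5 times. Samples of the same number correlated in their deviations at 0.05 to 0.10 in the infected arm and 0.09 to 0.23 in the transfected arm, so the numbers were not taken as pairs. The block was not run for the control groups, which lie in different arms. Signal over background limits AK4 in the transfected groups, ADM and SLC2A3.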

Other observations

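Routes beside glycolysis held calls in both directions. Of 6 pentose phosphate genes tested, only TKT, a transketolase, was called in shBCL9 (16.7%, beside 41.5% of all genes). TKT was higher by 0.61, with 11.05, 11.17 and 10.99 in shBCL9 arrays and 10.48, 10.43 and 10.46 in shGFP arrays (adjusted p = 2.82e-06, limma). TKT was also the only one called with miR-30 (0.24, adjusted p = 0.0281, limma), although plain probe sets gave -0.21 there. That is 16.7% of the list, beside 4.98% of all genes. In shGFP over cel-miR-67, PGD, the decarboxylating dehydrogenase of the pathway, was 2.38-fold higher (adjusted p = 6.38e-09), RPIA was higher by 0.47, and PGLS (-0.25) and TKT (-0.22) were lower. Those 4 of 6 are 66.7%, beside 61.4% of all genes.

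Of 23 genes tested for pyruvate entry and the citric acid cycle, 6 were higher and 4 lower in shBCL9, which is 43.5%, beside 41.5% of all genes. Those with the smallest adjusted p were PC (0.63), pyruvate carboxylase, IDH3B (0.30), PDHX (0.32) and PDP1 (-0.34), the phosphatase that turns pyruvate dehydrogenase on. With miR-30 the count was 0 in limma, beside 4.98% of all genes (0 higher and 5 lower at an unadjusted p under 0.05). In shGFP over cel-miR-67 7 were higher and 9 lower, which is 69.6%, beside 61.4% of all genes, with SUCLG1 higher by 0.93 and DLAT by 0.61, and SDHC (-1.04) and PDP1 (-0.98) lower. In that comparison PDK1 and PDK3, kinases that oppose PDP1, were higher. In shBCL9 PDP1 and PDK3 (-0.48) were both lower, and PDK1 was not called. A link between these genes was not tested.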
